A study of Mus musculus with 16 samples.

Results

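The transcriptome described here is that of laser-captured GAD67-GFP-positive cells from the cortical plate of mouse embryos whose dams received vehicle and no restraint. It rests on the 4 libraries labelled vehicle and non-stressed, chosen by that label alone out of 16 libraries in 4 groups. The CD1 dams were given corn oil by gavage each morning from gestational day 11 to day 14, the last dose 90 min before euthanasia, and were not restrained. Every embryo of the series carried the reporter genotype GAD67-GFP+/-, in which GFP marks cells that use the Gad1 gene, and each was a male of embryonic day 14.5 from a separate litter. Brains were fixed in paraformaldehyde, and about 100 GFP-positive cells were cut from each of 10 sections of 10 µm at the leading edge of migration. That gave about 1000 cells per embryo, whose total RNA was made into a library with a kit for small inputs. The labels call the cells neural progenitor cells and GABAergic progenitors. Embryo numbers 1 to 4 below follow the accession order and carry no rank. No group is compared with another here.

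Cortical interneurons of the mouse are born in the ganglionic eminences of the ventral forebrain and crawl tangentially into the cortex, while glutamatergic neurons arise locally and migrate radially into the cortical plate. Migrating neurons extend a leading process built on microtubules stabilised by doublecortin and microtubule-associated proteins, and pull their nucleus forward with actin and myosin. Interneurons synthesise GABA with the enzymes encoded by Gad1 and Gad2, and those of the medial eminence are specified by Lhx6 under Nkx2-1, which they switch off on their way to the cortex.

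The libraries held 3013350, 3687725, 3747242 and 3703840 counts in embryos 1 to 4. Levels of a gene across embryos are given as CPM, its count relative to the library size after scaling by the trimmed mean of M values. Levels of different genes are set beside each other as TPM, the count per kilobase of annotated exon scaled to the same sum in every library, since a long transcript collects more counts than a short one. A mean ± SD is over the 4 embryos throughout. The smallest level that 3 counts give lay between 0.755 and 1.01 CPM per library, and 3 counts over all 4 libraries together correspond to 0.205 CPM. The libraries had no molecular identifiers, so these floors cover counting error only. Embryos 1 and 2 carried one library code in their descriptions and embryos 3 and 4 another, and what the code stands for is not stated. The genes linked to sex matched the label: Kdm5d, Eif2s3y, Uty and Ddx3y had means of 88.2, 75.7, 70.9 and 43.8 CPM, and Xist had at most 1.86 CPM in any embryo.

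Genes of the neuronal cytoskeleton were prominent among the 20 protein-coding genes of highest mean CPM. Map1b, which encodes a microtubule-associated protein of growing axons and leading processes, had 17033, 14729, 14734 and 13923 CPM in embryos 1 to 4, a mean of 15105 ± 1341 CPM. Its highest value was in embryo 1, and the other 3 lay close together. Tuba1a, the main alpha-tubulin of postmitotic neurons, had 5608, 6156, 6038 and 4699 CPM, lowest in embryo 4. Map2, a microtubule-associated protein of dendrites, had 3968 ± 319 CPM, and Dcx, the doublecortin that stabilises microtubules in migrating neurons, had 3402, 3907, 3403 and 3939.5 CPM with a mean of 3663 ± 301 CPM. Dpysl3, a collapsin response mediator, reached 1897 ± 208 CPM, and Macf1, which links microtubules to actin, 1732 ± 109 CPM. On the actin side, Tmsb4x, whose peptide sequesters actin monomers, had 2686, 3231, 2715 and 2739 CPM, with embryo 2 above the other 3, and Actb had 2156 ± 229 CPM.

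Transcription factors and cell surface genes made up much of the rest of the 20. Sox11, a factor of newborn neurons, had 4942, 5176, 4199.8 and 4829.5 CPM, and Nfib, a factor of cortical neurons and glia, had 3088, 3169.9, 3352 and 3324 CPM, a CV of 3.89%. Zeb2, which acts in interneurons that have left the eminence and also in glutamatergic neurons, had 2607 ± 368 CPM. Ccnd2, a D-type cyclin, had 2987, 3771, 3461 and 3658 CPM and was lowest in embryo 1. Among secreted and surface products, Vcan, a chondroitin sulfate proteoglycan, had 3184, 1966, 2929 and 3249 CPM, Reln, the glycoprotein of the marginal zone, had 2502, 2367, 2292 and 1708 CPM, and the atypical cadherin Fat4 had 1865 ± 235 CPM. Embryo 2 lay apart from the rest for Vcan and embryo 4 for Reln. Translation factors Eef1a1 and Eif4g2, the RNA-binding protein gene Celf2, the Wnt pathway scaffold gene Apc and the ubiquitin ligase gene Ttc3 completed the list. Ttc3 was the steadiest of the 20, with 1989, 1941, 2012 and 1930.4 CPM and a CV of 1.97%.

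The 20 genes together took 7.37% ± 0.127 of all counts, and 12 of them varied by a CV under 10% between the embryos. Long transcripts were common among them: 13 of the 20 had at least 10 kb of exon, with a median of 14710 bases against 3674 over all coding genes of the table. Among all coding genes, those with 10 kb or more of exon were 7.38% of the genes and took 30.5% ± 0.577 of coding counts, while those under 2 kb were 22.5% of the genes and took 7.09% ± 0.364. Of the 100 highest genes by CPM, 54 were coding genes with 10 kb or more of exon, and 6 were coding genes under 2 kb. By TPM the same 2 classes held 6 and 53 of the 100 highest. For 7 of the 20 the annotated bounds overlap those of a second listed gene, on the opposite strand in 6 cases, and whether strand was used in counting is not given in the sources used here.

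**Figure D1:**
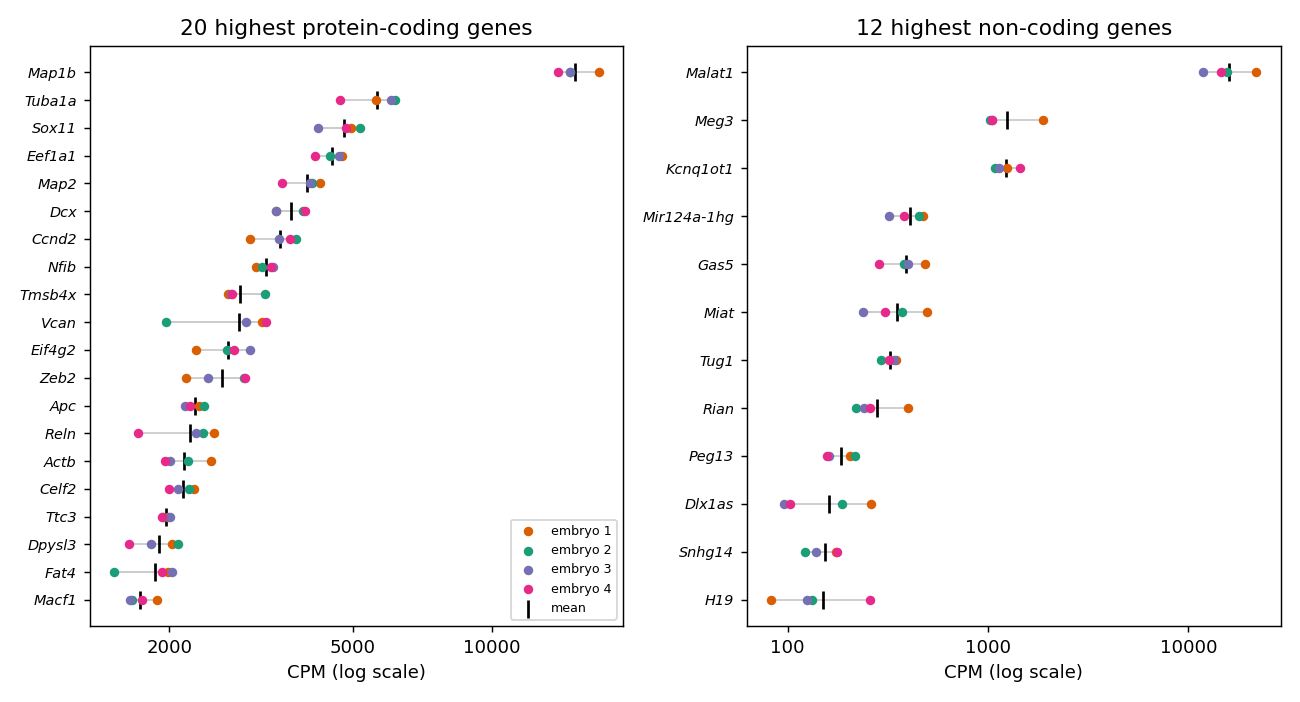
CPM (log scale) of the 20 protein-coding and the 12 non-coding genes with the highest mean level. Each point is 1 of the 4 embryos and the black bar is their mean. The embryos lie close together for Ttc3 and Nfib, while Malat1 runs from 11893 to 21844 CPM and Dlx1as from 95.6 to 259.9 CPM.

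Ranked per length, short transcripts moved up and 7 of the 20 highest genes were among the 20 highest by CPM. Tuba1a stood first with 14775, 16281, 16823 and 13299 TPM in embryos 1 to 4, followed by Malat1 with 14859, 10672, 8557 and 10665 TPM and Tmsb4x with 9306, 11237, 9949 and 10196 TPM. Tuba1a and Malat1 overlapped over the embryos, because embryo 1 reached 14859 TPM for Malat1. Eef1a1, the elongation factor that delivers aminoacyl-tRNA to the ribosome, had 8852 ± 439.9 TPM. The ribosomal protein genes Rps29, Rplp1, Rpl23a and Rpl41 had 5158, 4287, 3917 and 3913 TPM, in the range of Map1b with 4673 ± 306 TPM and Actb with 3942 ± 295 TPM. The length used was the union of annotated exons, which gives a gene with a rare long isoform a low TPM. Near-identical copies bear on some of these values. Of the 50-base words in the shortest coding transcript, 75.5% for Tuba1a and 59.9% for Eef1a1 occur in other genes, while none do for Map1b or Tmsb4x, and how the authors counted reads that match several genes is not stated.

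The sequence just upstream of the start was read for 4 genes on which the description turns: the highest coding gene, a factor of newborn neurons, and 1 marker each of medial eminence interneurons and of glutamatergic neurons. Each is the 250 bases before the RefSeq start on build GRCm38.p6, 5′ to 3′ on the strand of the gene, and lies outside the GENCODE gene as well. Capitals mark the TATA motif, TATAAA, the GC box motif, spelled GGGCGG, and the CCAAT motif. Each was searched on both strands, and no match overlaps another in these windows. All 4 genes lie on the minus strand, Map1b at chr13:99516603-99516852, Sox11 at chr12:27342719-27342968, Lhx6 at chr2:36105409-36105658 (the first of 3 starts in the table) and Neurod6 at chr6:55681264-55681513.
Map1b: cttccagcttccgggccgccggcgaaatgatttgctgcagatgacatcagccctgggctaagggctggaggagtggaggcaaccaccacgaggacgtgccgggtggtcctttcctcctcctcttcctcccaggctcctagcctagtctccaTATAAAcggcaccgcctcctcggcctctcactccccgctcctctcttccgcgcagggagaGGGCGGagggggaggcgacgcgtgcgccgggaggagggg
Sox11: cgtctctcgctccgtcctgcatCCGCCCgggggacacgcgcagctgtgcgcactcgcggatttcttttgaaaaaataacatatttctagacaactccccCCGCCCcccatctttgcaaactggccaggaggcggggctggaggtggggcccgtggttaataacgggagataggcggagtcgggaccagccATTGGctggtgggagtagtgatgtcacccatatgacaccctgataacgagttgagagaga
Lhx6: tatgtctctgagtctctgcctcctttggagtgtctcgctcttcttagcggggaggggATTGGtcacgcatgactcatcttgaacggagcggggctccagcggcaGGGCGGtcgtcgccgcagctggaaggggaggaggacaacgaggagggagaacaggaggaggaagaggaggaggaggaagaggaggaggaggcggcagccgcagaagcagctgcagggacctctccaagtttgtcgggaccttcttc
Neurod6: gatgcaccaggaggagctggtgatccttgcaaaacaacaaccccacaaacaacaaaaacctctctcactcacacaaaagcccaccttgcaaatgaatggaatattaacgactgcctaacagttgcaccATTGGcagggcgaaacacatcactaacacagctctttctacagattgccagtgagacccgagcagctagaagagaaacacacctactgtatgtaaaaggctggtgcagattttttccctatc

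The GC content of these stretches was 66.4% for Map1b, 58% for Sox11, 61.6% for Lhx6 and 46% for Neurod6, and Neurod6 alone of the 4 held no GC box motif. The same window was available for 15951 coding genes of the table, of which 44.8% held the GC box motif, 12.0% the TATA motif and 36.3% the CCAAT motif. Of the 100 highest coding genes by CPM, 75 had a window, and 60% of these held the GC box motif, 12% the TATA motif and 32% the CCAAT motif. Of 4104 coding genes with a window and no count in any of the 4 libraries, the shares were 12.1%, 26.7% and 37.4%. The median ratio of observed to expected CpG was 0.749 in the highest genes, 0.570 over all and 0.164 in the genes without a count. These are counts of letters in a window, given without a test, and they identify no binding site.

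Non-coding genes took 3.07% ± 0.480 of all counts, and Malat1 alone took 1.64%. Malat1, a nuclear RNA retained in speckles (chromosome 19 from 5795690 to 5802672, annotated lincRNA), had 21844, 15629.6, 11893 and 14594 CPM in embryos 1 to 4, highest in embryo 1 and lowest in embryo 3. Without it the remaining non-coding share was 1.43% ± 0.109. When genes that overlap another gene of the table were left out, Malat1 among them, the non-coding share fell to 0.4004% of the counts that remained. Of the 12 highest non-coding genes 11 overlap another gene, 5 of them on the opposite strand, and their counts cannot be assigned to 1 transcript with certainty. Clone or locus-number models that ranked among them, 4 in number, are not named.

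Imprinted RNAs followed Malat1. Meg3, the maternally expressed RNA of the Dlk1-Dio3 region on chromosome 12 from 109541001 to 109571726, had 1877, 1024, 1050.0 and 1044 CPM: embryo 1 stood above the other 3, which lay close together. Rian, from the same region, had 397, 219, 240.2 and 258 CPM and was also highest in embryo 1. Kcnq1ot1, which silences genes of the Kcnq1 cluster on the paternal allele, had 1242, 1089, 1142 and 1446 CPM and was highest in embryo 4. H19, the maternally expressed RNA next to Igf2, had 82.9, 133, 125 and 257 CPM, likewise highest in embryo 4. Its neighbour Igf2 had 397, 563, 518 and 738 CPM with the same embryos lowest and highest. Igf2 is also made by meningeal fibroblasts, whose markers, given below, were likewise lowest in embryo 1 and highest in embryo 4, and their part in either level was not tested. Peg13 and Snhg14 had 185 and 153 CPM. The 12 genes were not all variable to the same degree, with CVs from 7.63% for Tug1 to 50.1% for H19.

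Neuronal non-coding genes were the other group. Mir124a-1hg, the host transcript of the neuronal microRNA miR-124, had 477, 453, 320.2 and 382 CPM. Miat, a nuclear RNA of neurons and retina, had 498, 372, 239 and 307 CPM, and Gas5, a snoRNA host, had 488, 382, 401 and 286 CPM. Dlx1as lies opposite Dlx1, a homeobox gene of interneurons, and had 259.9, 188, 95.6 and 103 CPM. It was higher in embryos 1 and 2, of one library code, than in embryos 3 and 4, of the other. Dlx1 itself had 59.4, 131, 64.1 and 93.9 CPM in the same embryos. The 2 genes overlap on opposite strands, so their reads cannot be told apart without strand. Dlx6os1, antisense to Dlx6, had 109 ± 17.6 TPM against 23.9 ± 13.8 TPM for Dlx6. In all, 8 of the 12 highest non-coding genes were highest in embryo 1, against 30.7% of all genes with a mean of at least 1 CPM. At levels like those of the 12 that share was larger, 38.0% between 100 and 500 CPM and 41.2% above 500 CPM.

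Some of these RNAs carry microRNAs within their bounds. Their mature sequences are shown with the seed, bases 2 to 8, in capitals, as RefSeq gives them on GRCm38.p6, because the host level is the only reading of these loci here and mature microRNAs were not measured. Mir9-3hg, a host of miR-9, had 37.8 ± 12.8 CPM, H19 holds miR-675, Meg3 holds miR-770 and Rian holds miR-370.
miR-9-5p: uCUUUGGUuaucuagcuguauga
miR-9-3p: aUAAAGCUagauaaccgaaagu
miR-675-5p: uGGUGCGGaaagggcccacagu
miR-675-3p: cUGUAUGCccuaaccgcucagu
miR-770-5p: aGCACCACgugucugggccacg
miR-370-3p: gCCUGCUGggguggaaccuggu
The 6 seeds differ from one another.

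Markers of GABAergic interneurons were present in all 4 libraries. Of 15 pan-GABAergic genes 14 had counts in every library and 12 had at least 10 CPM in each. Gad1, which encodes GAD67 and marks the reporter, had 48.3, 42.6, 61.9 and 62.1 CPM, and Gad2, which encodes GAD65, had 202, 264, 197 and 248 CPM. Per length Gad2 had 190.4 ± 28.4 TPM and Gad1 34.7 ± 7.51 TPM, and no embryo overlapped between them. Every embryo was heterozygous for the GAD67-GFP reporter, and what its allele contributes to the Gad1 counts was not tested. Slc32a1, the vesicular GABA transporter gene, had 75.8, 35.0, 29.8 and 34.6 TPM, a mean of 43.8 ± 21.5 TPM, with embryo 1 above the other 3. Among homeobox factors of the lineage, Dlx1 had 87.0 ± 32.9 CPM, Dlx5 27.1 ± 12.2 CPM and Dlx2 25.0 ± 7.17 CPM. Erbb4, the neuregulin receptor, had 570.1, 471, 388 and 451 CPM. The summed level of the list, 2716 ± 362 CPM, was led by Gng2, a G protein subunit gene with 1346 ± 217 CPM that other neurons also use.

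Markers of medial eminence interneurons had a median level of 124 TPM over 17 genes, and those of caudal and lateral origin 17.0 TPM over 14 genes, a difference given without a test. Lhx6, the factor that specifies these cells, had 295, 334, 194 and 301 CPM, and Sox6, which acts downstream of it, had 164, 143, 161 and 202 CPM. Sst, the somatostatin gene of a large interneuron class, had 392, 124, 189 and 186 CPM and per length 1510.2 ± 754 TPM, with embryo 1 above the other 3. Satb1, needed for maturation of somatostatin cells, was steadier at 343 ± 19.6 CPM. Nkx2-1, on in eminence progenitors and off in cortical interneurons, had 0, 0, 2.77 and 4.10 CPM, and Lhx8, of the ventral non-cortical lineage, had no count in any library. Of the caudal and lateral list, Nr2f2 had 90.9 ± 13.7 CPM and Meis2 183, 50.6, 142 and 180.1 CPM, lowest in embryo 2, while Prox1, Sp8, Htr3a and Vip had 2.09, 0.693, 0.128 and 0.0666 CPM, the last 3 under the 3-count floor of any library on average. Cnr1, the cannabinoid receptor gene, had 594 ± 38.7 CPM, and Reln, on this list and that of Cajal-Retzius cells, was described above. The sum of the medial list, 6099 ± 427 CPM, was mostly Zeb2, Tcf4 and Mef2c, with 1245 CPM for Tcf4 and 532 CPM for Mef2c, which glutamatergic neurons use too. Without genes that overlap another or stand on a second list it was 1575 CPM.

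Markers of glutamatergic cortical neurons had a median level of 184 TPM, against 58.1 TPM for the pan-GABAergic list. All 18 listed glutamatergic genes had counts in every library. Neurod6, a factor of postmitotic pyramidal neurons, had 2274, 3577, 2400.5 and 2583 TPM, Tbr1, of deep-layer and Cajal-Retzius neurons, 953, 634, 716 and 815 TPM, and Gad2 163, 214, 168 and 215 TPM. The lowest embryo for either glutamatergic gene stood above the highest embryo for Gad2. Embryo 2 was highest for Neurod6 and lowest for Tbr1. Fezf2 and Neurod2 had 723 ± 144 TPM and 706 ± 179.5 TPM, and Bcl11b, also used by some interneurons, 369 ± 12.3 TPM. The vesicular glutamate transporter genes Slc17a7 and Slc17a6 had 46.8 ± 22.6 TPM and 27.7 ± 10.4 TPM, near the level of Slc32a1. The list summed to 7693 ± 499 TPM and the pan-GABAergic list to 2537 ± 283 TPM, over 18 and 15 genes, with Nfib, which is not restricted to these neurons, giving 1063 TPM of the first sum. In CPM the sums came, without genes that overlap another or stand on a second list, to 3264 and 1722. In these pooled captures fewer cells of a type and less RNA per cell cannot be told apart, and the part of glutamatergic RNA in any level given here was not tested.

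**Figure D2:**
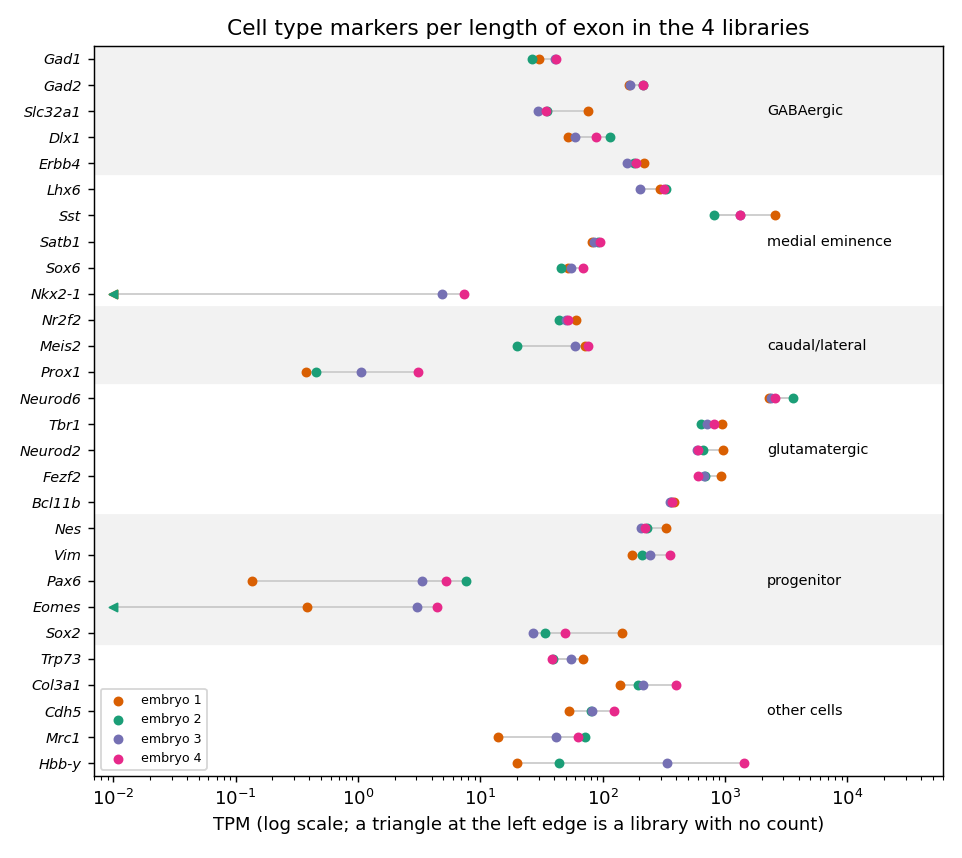
TPM (log scale) of cell type markers, grouped by the cell type they are known for. Each point is 1 embryo and the triangles at the left edge are libraries with no count. Neurod6 lies between 2274 and 3577 TPM and Gad2 between 163 and 215 TPM. Hbb-y, the embryonic beta-globin gene, is spread widest of the plotted markers with a count in every library.

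The label of progenitor cells was set against progenitor markers. Of 18 radial glia genes 16 had counts in every library. The intermediate filament genes Nes and Vim had 332, 232, 207 and 221 TPM and 175, 211, 244 and 358 TPM in that order, with embryo 1 highest for Nes and lowest for Vim. Ptprz1, a receptor phosphatase of radial glia that newborn neurons also make, had 897 ± 107 CPM. Several transcription factors of this state were at low levels, while Sox2, given per length below, had a higher mean than Pax6. Pax6 had 0.336, 18.6, 7.80 and 12.1 CPM, Sox9 and Hes1 7.84 and 2.80 CPM, and Hes5 0.189 CPM. Of 9 intermediate progenitor genes 7 had counts in every library, summing to 252 ± 52.9 CPM. Most of that was Elavl4, an RNA-binding protein gene that neurons also use, with 153 CPM. Mfap4, Insm1 and Hes6 had 44.6, 23.7 and 15.7 CPM, Eomes and Neurog2 1.61 and 3.41 CPM, and Neurog1 no count. Of ventral progenitor genes Dll1 had 1.01, 10.1, 9.56 and 10.3 CPM, Olig2 a count in embryo 3 only, and Gsx1 and Gsx2 none. Per length, Pax6 had 4.09 ± 3.16 TPM, Eomes 1.96 ± 2.12 TPM and Sox2 63.7 ± 54.5 TPM. Genes of postmitotic neurons had 1423 ± 137 TPM for Dcx, 956 ± 79.7 TPM for the neuronal beta-tubulin Tubb3 and 701 ± 97.3 TPM for the tubulin-binding Stmn2. Pax6, Hes5 and Eomes were at low levels beside these, while Nes, Vim and Sox2 were higher than Pax6 on average. Of the 18 radial glia genes, 11 had at least 10 CPM in every library. Whether progenitors were among the captured cells was not tested, and the material is called here by its capture rule.

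Of 30 cell cycle and replication genes 14 reached 10 CPM in every library, and Ccnd2 and Cdk4 had 1813 ± 211 TPM and 225 ± 51.2 TPM. The list summed to 4434 ± 459 CPM, of which Ccnd2 gave 3469 CPM, and the median CV of its genes was 44.5%. Mki67, a marker of cycling cells, had 140.3, 172, 174 and 254 CPM, highest in embryo 4 and lowest in embryo 1. Top2a, the mitotic topoisomerase gene, had 25.5, 28.5, 97.6 and 100.0 CPM. It was lower in embryos 1 and 2, of one library code, than in embryos 3 and 4, of the other. The cyclin genes Ccna2, Ccnb1 and Ccne1 had 19.8, 7.32 and 3.69 CPM. The cell cycle exit genes Cdkn1c and Cdkn1b had 139.9 and 28.7 CPM.

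Genes of non-neuronal cells were present in amounts that differed between the embryos. Of 15 meningeal fibroblast genes 14 had counts in every library and Ptgds had them in 3, and the sum was 1714, 2441, 2495 and 3984 CPM in embryos 1 to 4. Of the 15, 11 were lowest in embryo 1 and 11 highest in embryo 4, against 35.7% and 22.9% of all genes with a mean of at least 1 CPM. The fibrillar collagen genes Col1a1 and Col3a1 had 227, 392, 401 and 716 CPM and 285, 399, 422 and 768 CPM in that order, and the proteoglycan gene Dcn 92.0, 101, 121 and 284 CPM. Embryos 2 and 3 lay between the other 2 in all 3 genes. Markers of red blood cells were also highest in embryo 4. Hbb-y, the embryonic beta-globin gene, had 2.69, 5.86, 42.5 and 178 CPM, and the summed list 35.9, 36.7, 65.4 and 234 CPM. Of its 10 genes 5 had no count, namely Hbb-bh1, Hbb-bs, Hbb-bt, Hba-a1 and Hba-a2.

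The endothelial, pericyte and macrophage lists each summed to less than the meningeal list in every embryo. The 13 endothelial genes had counts in every library and summed to 461, 458, 441 and 560.4 CPM, with Slc2a1 at 124, Cdh5 at 72.1 and Cldn5 at 35.8 CPM. Pericyte genes, 10 in all, summed to 168, 353, 346 and 301 CPM and were led by Rgs5 with 74.5, 128, 162 and 125 CPM, lowest in embryo 1. Of 16 microglia and macrophage genes 14 had counts in every library, summing to 99.0, 261, 212 and 258 CPM. Mrc1, of macrophages at the brain border, had 61.7 ± 33.7 CPM, Csf1r 16.4 ± 7.19 CPM and P2ry12, of microglia, 10.9 ± 7.98 CPM. Of 8 oligodendrocyte precursor genes 3 had counts in every library, and the list summed to 66.8 to 105 CPM, most of it Pdgfra, which meningeal fibroblasts also make. Choroid plexus markers were near absent, with no count of Ttr or Folr1 and 8.72 CPM at most for the sum of 6 genes. Of 10 marks of the cortical hem or ventral telencephalon, Isl1, Chat and Gbx1 had no count and the sum, 214 to 340.4 CPM, was led by Foxp1 with 171 ± 58.9 CPM, which cortical neurons also use. Of 8 subplate genes Cplx3 had no count, and the sum ran from 200.2 to 373 CPM. Cajal-Retzius genes other than Reln included Trp73 with 57.1 ± 17.6 CPM and Nhlh2 with 135 ± 11.7 CPM. The part of these cells in the levels of other genes was not tested.

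**Figure D3:**
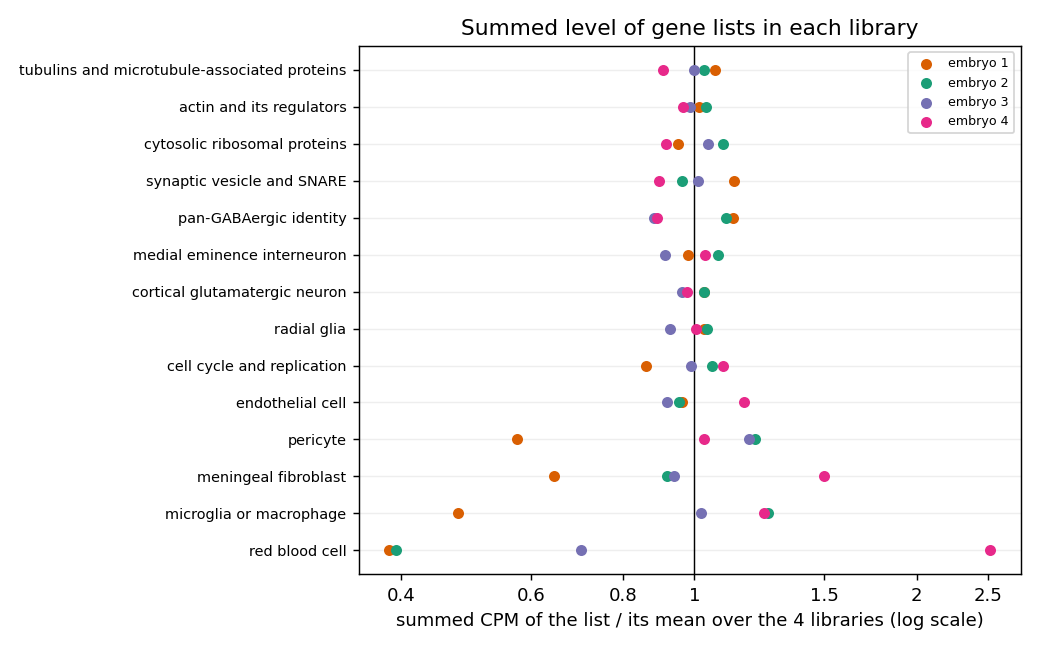
Summed CPM of 14 gene lists in each embryo, divided by the mean of the 4 embryos (log scale, black line at 1). Each point is 1 embryo. The sums of the 9 upper lists, of neuronal, translation, progenitor and cell cycle genes, lie near the line in every embryo. Those of the meningeal, pericyte, macrophage and red blood cell lists are spread over a wider range, with embryo 1 lowest in all 4. A sum can rest on 1 gene: Ccnd2 gives 3469 of 4434 CPM in the cell cycle list. The median CV of single genes was 44.5% in the cell cycle list and 44.5% in the meningeal list.

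Genes of the migration machinery were detected nearly throughout. Of 34 tubulin and microtubule genes all had counts in every library and 33 had at least 10 CPM in each. Their sum of 42622 ± 2890.1 CPM was mostly Map1b, Tuba1a, Map2 and Dcx, described above. Tubb5 and Tubb2b, beta-tubulins of newborn neurons, had 2464 ± 303 TPM and 1805 ± 276 TPM, and Pafah1b1, the Lis1 dynein regulator, 188 ± 49.1 TPM. All 26 actin genes, Tmsb4x and Actb included, passed 10 CPM in every library, among them Marcks with 704 ± 70.2 CPM, Cfl1, the actin-severing cofilin gene, with 642 ± 84.2 CPM and Rac1 with 501 ± 70.6 CPM. Of 30 receptor genes of tangential migration and guidance 26 passed that level. Plxna2 and Dcc, receptors for semaphorins and netrin, had 1128 ± 137 CPM and 934 ± 102 CPM, and Robo1 576 ± 56.6 CPM. The chemokine receptors Cxcr4 and Ackr3, which keep interneurons in their migratory streams, had 42.3, 84.1, 45.8 and 41.6 CPM and 102, 87.1, 76.0 and 74.1 CPM, with embryo 2 highest for Cxcr4 and the embryos close for Ackr3. Met and Ret, receptors of motogens, had 12.2 and 2.60 CPM. Among ligands, Cxcl12, made by the meninges among other cells, had 72.5, 139, 138 and 166 CPM and was lowest in embryo 1, as were the collagen genes. The part of meningeal RNA in this level was not tested.

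Channel and receptor genes were read per length. Of the voltage-gated sodium channel genes Scn3a, the main embryonic pore gene, had 279.7, 346, 218 and 275 CPM and 110.0 ± 18.4 TPM, ahead of Scn2a with 50.8 ± 10.1 TPM, Scn8a with 43.8 ± 9.45 TPM and Scn1a with 11.7 ± 5.62 TPM, the pore gene of mature interneurons. Scn4a and Scn11a had no count. The auxiliary subunit gene Scn3b had 149 ± 16.6 TPM. Among calcium channel genes the auxiliary Cacnb3 had 209.5 ± 37.2 TPM, and the pore genes Cacna1e and Cacna1b 123 ± 25.4 TPM and 93.5 ± 16.7 TPM. Of GABA-A receptor genes, Gabrb2 had 87.8 ± 14.8 TPM and Gabra2 46.1 ± 11.4 TPM. Gria1 and Gria2 had 269.7 ± 51.7 TPM and 267 ± 20.9 TPM among AMPA receptor genes, and Grin2b had 78.9 ± 21.1 TPM among NMDA receptor genes, against 0.486 TPM for Grin2a, which follows later in development. The chloride importer gene Slc12a2 had 43.7 ± 17.3 TPM and the exporter gene Slc12a5 17.5 ± 9.18 TPM. All 24 synaptic vesicle genes had counts in every library, with 394 ± 46.6 TPM for Snap25 and 335 ± 64.0 TPM for Syn1.

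Genes of stress hormone signalling, activity and detoxification were read as levels in the unexposed state. Nr3c1, the glucocorticoid receptor gene, had 13.1, 14.9, 29.2 and 31.0 CPM, lower in embryos 1 and 2, which share a library code. Nr3c2, the mineralocorticoid receptor gene, had 8.55 ± 6.28 CPM. Sgk1 and Fkbp5, target genes of these receptors, had 15.4, 65.2, 21.6 and 25.1 CPM and 38.3, 16.8, 38.2 and 46.4 CPM in that order. Embryo 2 was highest for Sgk1 and lowest for Fkbp5. In all, 8 of the 14 listed genes with at least 1 CPM were highest in embryo 2, against 27.2% of all such genes. Crh and Hsd11b1 had no count. Of the immediate early genes, Fosb, Arc and Egr4 had no count, Fos 0.126 and Npas4 0.694 CPM, while Nr4a3, Homer1 and Egr1 had 186 ± 54.3 CPM, 170.1 ± 31.5 CPM and 23.3 ± 7.90 CPM. Counts are per gene, so isoforms of Homer1 are not told apart. Cytochrome and esterase genes of the liver, among them Cyp1a1, Cyp2c29, Cyp2e1, Cyp3a11, Cyp3a13 and Ces1d, and the conjugating enzyme gene Ugt1a6a had no count. Of the 50-base words of Ugt1a6a 91.8% occur in other genes, so it cannot be read as absent. Cyp51, of sterol synthesis, had 91.2 ± 17.0 CPM, Cyp1b1 45.3 ± 9.22 CPM and the reductase gene Por 26.8 ± 4.97 CPM. Hmox1, a gene of the oxidative stress response, was steady at 9.40, 9.05, 9.56 and 8.98 CPM. The inducible heat shock genes Hspa1a and Hspa1b had 0.991 and 1.24 TPM, against 1041 ± 171 TPM for the constitutive Hspa8. Hspa1a and Hspa1b share 66.3% and 62.3% of their 50-base words with other genes, mostly with each other, so their low counts cannot be read as low levels.

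Genes of translation and respiration were detected nearly throughout. Of 79 cytosolic ribosomal protein genes 73 had at least 100 CPM in every library, and their sum was 30946, 35615, 33919.9 and 29763 CPM, highest in embryo 2. Per length the list summed to 100917 ± 7584 TPM, and the 34 microtubule genes to 37984 ± 2509 TPM. All 32 nuclear genes of oxidative phosphorylation passed 10 CPM in each library, with Cox6a1 at 1955 ± 333 TPM and Atp5b at 636 ± 75.3 TPM. Of 26 neuronal RNA-binding protein genes all passed it, with the splicing regulators Rbfox2 at 513 ± 17.5 CPM and Nova2 at 458 ± 46.3 CPM. Of 28 chromatin and transcription regulators linked to neurodevelopmental disorders, Adnp was the 1 under 10 CPM in some library, with 89.3% of its 50-base words in another gene of the table, and Kmt2a and Kmt2c had 945 ± 149.7 CPM and 943 ± 67.5 CPM. Sums of these 4 lists varied by 8.24, 8.69, 4.15 and 8.83% between the embryos.

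A few housekeeping genes stood at or near 0 and cannot be read as absent. Rpl26 had no count, and Rpl30, Rpl34 and Rps27 had 1 count each over all 4 libraries, against a mean of at least 189 CPM for the 73 ribosomal genes above. Between 50.2% and 83.6% of the 50-base words of these 4 genes occur in another annotated gene, and the closest such gene of the table, which also had no count, is its neighbour in the order of the table in each case. Eno1, the glycolytic enolase gene, had no count and shares 54.7% of its words with Eno1b, which had 36 counts. The pairs Hba-a1 with Hba-a2 and Hbb-bs with Hbb-bt share 58.3% to 86.9% of their words and were at 0 in all 4 libraries, so Hbb-y rather than these adult-type genes was read as a mark of blood. Snurf, at 0, lies within Snrpn, which had 47 counts. In all, 85 listed genes shared at least 50% of their words and 11 of them had at most 1 count. Why these genes lack counts was not tested.

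In all, 17127 of the 24539 genes in the table had a count in at least 1 embryo, and 12705 had a count in all 4. At least 1 CPM in every library was reached by 11661 genes, at least 10 CPM by 7818 and at least 100 CPM by 1761. Among coding genes 58.3% had counts in all 4 libraries, among non-coding genes 15.7%. Embryos 1 to 4 had 13868, 14382, 15741 and 15484 genes with a count. After thinning all libraries to the total of embryo 1 the other 3 had 14268, 15577 and 15354 genes with a count, so embryo 1 remained the lowest at equal depth. Embryos 1 and 2, of one library code, both stayed below embryos 3 and 4, of the other. What part the code had in this was not tested. Embryo 1 alone lacked 814 genes that the other 3 had, against 450, 81 and 127 for embryos 2 to 4. Genes found in 1 library only numbered 199, 262, 660 and 540 in embryos 1 to 4, with a median of 2 counts. The 100 highest genes took 18.8% ± 0.260 of the counts, and 906 to 947 genes held the upper 50% of a library. Rn45s, the 45S ribosomal RNA precursor, took 1.26, 1.22, 1.11 and 1.87% of the counts in embryos 1 to 4, and its part in other levels was not tested.

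The 4 libraries were alike in rank and differed well beyond counting error in value. Over 13224 genes the correlation of log2 CPM between 2 libraries had a median of 0.88 over 6 pairs, given as a description, since all points share the gene set and the scaling. Embryos 3 and 4 were the closest pair with 0.93, and embryos 1 and 2 the farthest with 0.84. Each of these pairs shares a library code, and the 4 pairs of different code lay between them at 0.86 to 0.89. Between embryos 3 and 4 14.6% of the genes differed by more than 2-fold, and between embryos 1 and 2 34.8%. Counts of the closest pair differed by a chi-square of 8.45 per gene, where counting error alone gives about 1, so no library appeared to be deposited again under another name. The common biological coefficient of variation, the SD between embryos beyond counting as a share of the level, was 0.481 as edgeR estimates it, and 0.401 without embryo 1.

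Of 13678 genes with at least 20 counts in all, 12246 or 89.5% spread more than counting error allows in a Pearson chi-square test of the 4 counts at a Benjamini-Hochberg adjusted p under 0.05. With that background, all 20 of the highest coding genes, all 12 of the highest non-coding genes, 14 of 14 pan-GABAergic, 16 of 16 medial eminence and 72 of 75 ribosomal protein genes were called, shares near that of all genes. The size of the spread depended on the level. Genes between 1 and 5 CPM had a median CV of 92.8%, where counting alone would give 33.6%. Between 20 and 50 CPM the median was 33.5% and between 100 and 500 CPM 16.6%, with 9.44% and 4.04% from counting. Above 500 CPM it was 11.7%, with 2.02% from counting. Litter, capture, fixation and amplification differ between all 4 libraries at once, and their shares in the spread cannot be told apart. The part of the library code, shared by embryos 1 and 2 and by embryos 3 and 4, was not tested.

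**Figure D4:**
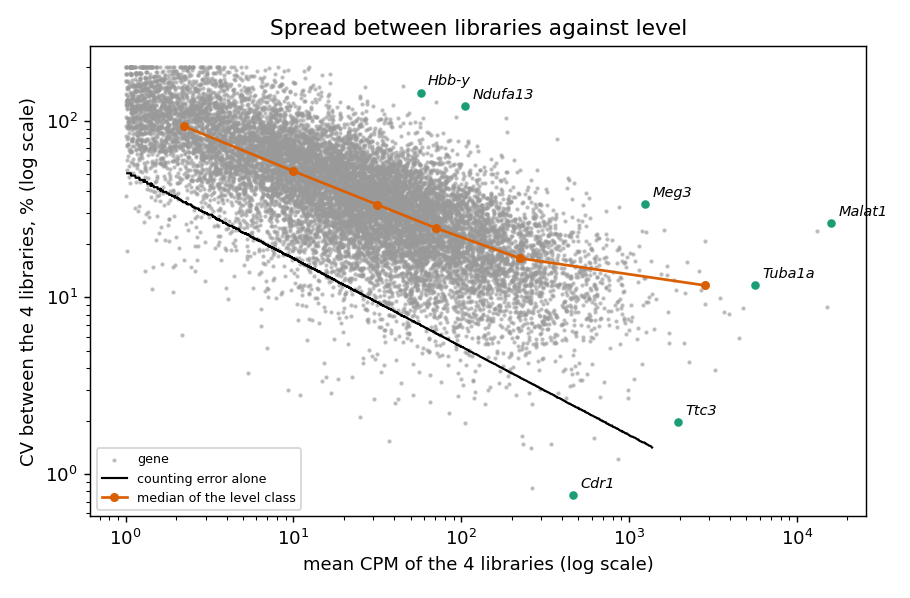
CV between the 4 embryos (%, log scale) against mean CPM (log scale) for each gene with a mean of at least 1 CPM, in grey. The black line is the CV that counting error alone gives, the orange points are medians of 6 level classes, and 7 named genes are in green. Most genes lie above the black line at every level.

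The genes of lowest spread among 4244 with a mean of at least 50 CPM were Cdr1, Rb1cc1, Phf3, Soga1, Strbp, Kif2a, Fgd4 and Ap1g1, with CVs between 0.764% and 1.65%. Cdr1, whose locus is known for a circular RNA rich in miR-7 sites on the opposite strand, had 467, 465, 461 and 459 CPM, and reads of the 2 strands cannot be told apart there without strand. Rb1cc1, a gene of autophagy initiation, had 263, 265, 268 and 266 CPM, and Kif2a, a microtubule-depolymerising kinesin, 349.5, 346, 337 and 343 CPM. These 8 were chosen for low spread out of the 4244, none of them was called above counting error, and under library totals without scaling their means moved by more than their own SD. In all, 614 of the 4244 genes had a CV under 10% and 6 had one over 100%.

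Most of the 8 genes of highest spread were high in 1 embryo. Ndufa13, a complex I subunit gene, had 297, 44.2, 44.0 and 38.5 CPM, Blm, a helicase gene of DNA repair, 31.6, 207, 24.9 and 20.8 CPM, and Vps52, of vesicle tethering, 139, 30.6, 28.9 and 28.2 CPM. In each of the 3, 1 embryo stood far above 3 that lay close together. Mlh3 and Dagla had the same form, with Dagla, which makes the endocannabinoid 2-arachidonoylglycerol, at 150.1, 27.2, 37.7 and 21.0 CPM. Hbb-y differed in that embryos 3 and 4 both exceeded embryos 1 and 2, which carry the other library code. Erdr1 and Tspyl4 had 236, 27.7, 34.2 and 76.2 CPM and 61.4, 470.0, 136 and 73.4 CPM, with the other 3 embryos less close. Of the 32 nuclear respiration genes, which do not include Ndufa13, 5 were highest in embryo 1, against 30.7% of all genes with a mean of at least 1 CPM.

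Genes that 1 embryo nearly owned were counted apart. Of 14103 genes with a mean of at least 1 CPM, 441 had at least 80% of their summed CPM in 1 embryo, 135, 140, 60 and 106 of them in embryos 1 to 4. At a mean of at least 10 CPM there were 17. The highest were Ston1 with 3.69, 149.9, 14.1 and 12.1 CPM, Kdelc2 with 1.34, 11.2, 5.53 and 88.2 CPM and Krtcap3 with 56.7, 4.79, 2.52 and 1.80 CPM, then Kcnk18, a potassium channel gene of sensory neurons, with 4.03, 0, 61.6 and 0 CPM, Il34, a cytokine gene of microglial survival, with 55.4, 0.533, 1.76 and 1.80 CPM and the microRNA entry Mir3113 with 47.3, 2.13, 2.77 and 4.62 CPM. Embryo 1 held 3 of these 6. The mean of such a gene rests on 1 library of 4.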

How the data were processed

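Total RNA libraries of 16 captures were measured, and the 4 labelled vehicle and non-stressed were used. What the authors deposited is 1 table of counts of reads per gene, in whole numbers and not normalised, for 24539 symbols. Per the submitters' processing notes, STAR 2.5 and build mm10 were used. How reads were counted (program, annotation, strand, reads that match several genes) is not given in the sources used here. Library totals ran from 3013350 to 3747242 counts.

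CPM were computed over TMM factors from edgeR 4.0.16 in R 4.3.3, fitted on all 16 libraries over 13224 genes kept with a count minimum of 10. TPM used the exon union of GENCODE vM21, matched by symbol for 23887 genes and by synonym for 270. Spread was tested with a Pearson chi-square of the 4 counts against their library shares, with 3 degrees of freedom, over genes with at least 20 counts, adjusted by Benjamini-Hochberg. On simulated data without added spread it called 4 of 13478 genes. Of 100 genes given a CV of 0.3 it called 56, and of 100 given 0.6 it called 80. Correlations used log2 CPM with a prior count of 2. Python 3.11.15, pandas 2.3.3, scipy 1.17.1 and, for alternatives, DESeq2 1.42.0 were used. The 4 embryos came from separate litters, so the spread includes litter, embryo, capture and library.

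Genes were named by rule: the 20 coding and 12 non-coding genes of highest mean CPM, the 10 highest per kilobase, the 4 highest members and every marker without a count from each list, the 8 lowest and 8 highest CVs among genes of at least 50 CPM, and the 6 highest genes with at least 80% of their CPM in 1 library. Further list members were named to show their order, and models known only by clone or locus number were left out. Members and lists were chosen with earlier results of these data known. A list of mitochondrially encoded genes was not analysed here, and some listed genes are counted in their lists but not reported here by name.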

Additional observations from a re-analysis of the deposited data

Results flagged for a closer look

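Of 240 values examined, 28 had 1 embryo whose gap to the nearest of the other 3 exceeded Dixon's 95% critical share of the whole range. Chance flags about 1 in 20 such groups where the values follow a normal distribution. A gene with counts in 1 embryo only, as Clic6 and Otx2, is always flagged. Also, 14 of the genes were named because 1 embryo stood out or their CV was high. Of the 28 values 11, 7 of them in embryo 1, come from those 14. Neither the total nor the share of embryo 1 can therefore be read against chance. Of the 28, 13 concerned embryo 1, 6 embryo 2, 3 embryo 3 and 6 embryo 4. No explanation was tested for any of them.

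In embryo 1 the total of 3013350 counts was the lowest. Highest there were Meg3 with 1877 CPM, Kmt2a with 1167 CPM, the kainate receptor gene Grik3 with 501 CPM, Ndufa13 with 297 CPM, Dagla with 150.1 CPM, the Y-linked demethylase gene Kdm5d with 143 CPM, Vps52 with 139.0 CPM, Mlh3 with 131 CPM, Krtcap3 with 56.7 CPM, Il34 with 55.4 CPM and Mir3113 with 47.3 CPM. The Notch ligand gene Dll1 was lowest there with 1.01 CPM.

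In embryo 2 the summed heat shock and chaperone list was highest with 5513 CPM, and Fkbp4, a co-chaperone of steroid receptors, had 129 CPM. Tmsb4x with 3231 CPM, Neurod6 with 1613 CPM, Blm with 207 CPM and Ston1 with 149.9 CPM were highest there too.

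In embryo 3 Kcnk18 was highest with 61.6 CPM, Clic6 had the only count of the 4 libraries at 0.252 CPM, and Strbp was lowest with 839 CPM. In embryo 4 the summed red blood cell list was highest with 234 CPM, as were Eif2s3y with 93.6 CPM, Kdelc2 with 88.2 CPM and Otx2, at 0 in the other 3, with 2.05 CPM. Soga1 with 604 CPM and the lactate dehydrogenase gene Ldha with 141 CPM were lowest there. The ranges for Soga1 and Strbp were within counting error.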

How the results depend on the processing

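Of the summary values recomputed under each alternative, 183 moved by less than the spread between embryos and 19 by more. Of the levels of single genes 1387 stayed within that spread and 18 did not, all of them genes with CVs near 1 to 2% under another library scaling. Leaving out genes that overlap another gave 21.6% of the counts for the 100 highest genes and 0.4004% for non-coding genes. Ranking per kilobase of exon kept 7 of the 20 highest genes. Without the filter on low counts the median correlation was 0.914 and the biological coefficient of variation 0.567. The median gene-wise DESeq2 estimate was 0.339. Leaving out each embryo gave 0.401 to 0.538, the lowest without embryo 1, and 75.2% to 84.7% of genes called in the spread test, which then has 1 degree of freedom fewer.

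Leaving out genes that overlap another or stand on a second list lowered the summed CPM to 1722 for pan-GABAergic, 1575 for medial and 759 for caudal or lateral eminence, 3264 for glutamatergic, 309 for Cajal-Retzius, 124 for subplate, 1652 for radial glia, 48.0 for intermediate progenitor, 17.2 for oligodendrocyte precursor, 224 for endothelial, 99.1 for microglia or macrophage and 17.0 for hem or ventral genes. That follows from the number of genes left. No paired analysis was possible because the 4 libraries form 1 group, compared with no other, and the replicate numbers only follow the accession order. Genes under about 1 CPM lie at the floor of a single library, so their absence cannot be read at this depth.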

Other observations

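Of 33 imprinted genes, the non-coding RNAs described above included, 32 had counts in every library and 12 had at least 100 CPM in each. Nnat, a paternally expressed proteolipid gene of the developing brain, had 4255, 3468, 3254 and 2584 TPM in embryos 1 to 4, a mean of 3390.3 ± 689 TPM. Gnas, the stimulatory G protein gene, had 621 ± 59.2 TPM and Mest, a paternally expressed hydrolase gene, 574 ± 214 TPM. In CPM 12 of the 32 were highest in embryo 1 and 12 in embryo 4, against 30.7% and 22.9% of all genes with a mean of at least 1 CPM.

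Ligands of guidance and growth were detected beside their receptors. Of 27 semaphorin, slit, netrin, ephrin and neuregulin genes, with growth factors among them, 16 had at least 10 CPM in every library, and the summed list had 1162 ± 121 TPM and 3212 ± 111 TPM for 30 receptor genes. Efnb2 and Sema6a, both membrane-bound, had 174 ± 11.8 TPM and 172 ± 29.7 TPM. Among chaperones, Hsp90ab1 had 2375 ± 168 TPM and Hsp90aa1 740.3 ± 91.0 TPM. Among glycolytic genes, Gapdh had 589.9 ± 147 TPM, with 54.7% of its 50-base words shared with other genes, and Ldhb 313 ± 34.7 TPM.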
